A study of Homo sapiens with 22 samples.

Results

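FOXA2, JUN and FOSL1 binding was examined around 10 genes of the YAP and TEAD pathway in human prostate cancer cell lines. The genes were YAP1, WWTR1, TEAD1, TEAD4, AXL, ANKRD1, AMOTL2, LATS2, VGLL3 and AJUBA, of 20136 protein-coding genes in the annotation. They were chosen by name, and every region of every list that touched a gene body or the 50 kb on either side of it was taken. The 10 windows span 1.98 Mb, or 0.0640% of the genome, and held 961 of the 871377 regions in the 22 lists.

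The Hippo pathway is a kinase cascade that restrains growth. Its last kinases, LATS1 and LATS2, phosphorylate the coactivators YAP1 and TAZ (the product of WWTR1) and hold them in the cytoplasm. When the cascade is quiet, YAP1 and TAZ enter the nucleus and act through the DNA-binding TEAD factors, mostly at enhancers that AP-1 (a dimer of JUN and FOS family proteins, FOSL1 among them) binds as well. The pathway is known in prostate cancer for its activity in mesenchymal or stem-like cells that have lost luminal identity. FOXA2 is a forkhead pioneer factor, able to bind its motif in closed chromatin.

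PC3 is a prostate cancer line with stem-like features, NCI-H660 a neuroendocrine line and LNCaP a luminal line. FOXA2 ChIP-seq was from PC3 cells given vehicle, ORY-1001 (10 µM, 4 h) or C12 (0.5 µM, 4 h), both inhibitors of the lysine demethylase LSD1, and from NCI-H660 cells given vehicle or ORY-1001 at the same dose and time. JUN ChIP-seq was from PC3 and NCI-H660 cells transfected with a control siRNA (siNC) or an siRNA against FOXA2 (siFOXA2), and FOSL1 ChIP-seq from PC3 cells transfected likewise. In LNCaP, JUN was profiled with siNC, with an siRNA against FOXA1 (siFOXA1), in cells that stably overexpress FOXA2 (FOXA2OE) and in cells labelled FOXA2K265R, a FOXA2 with lysine 265 changed to arginine. The FOXA2OE cells also had a FOXA2 list, and all FOXA2OE and FOXA2K265R lists are labelled vehicle. Vehicle-treated PC3 had ATAC-seq and H3K27ac lists, and vehicle-treated NCI-H660 had ATAC-seq and H3K4me2 lists. A pair of further vehicle PC3 FOXA2 lists, whose antibody is not labelled, are called the other ChIPs.

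Apart from that pair each group was 1 list, so there is no replicate check and no p-value. Shares carry Wilson 95% intervals, which cover counting error only. Lists held between 1538 (FOSL1 with siFOXA2) and 210960 regions (PC3 ATAC), and the sequencing depth behind them is unknown. A region is called kept where at least 1 bp of it is overlapped in the second list of a contrast. Since the second list may be shorter for technical reasons, each count of kept regions stands beside the share kept over the whole list. The score is the authors' number for a region and is used for rank within a list, where rank 1% means the top 1% of that list. Scores of a place in different lists are printed side by side, but depth is unknown, so their difference is not read as a change in binding. Promoters of 5 neuroendocrine marker genes were accessible at 3 in PC3 and 5 in NCI-H660, with H3K27ac at 1 in PC3 and H3K4me2 at 5 in NCI-H660. The mesenchymal or stem-like markers VIM, CD44 and CAV1 were accessible at 3 of 3 promoters in both.

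The sequences of 7 FOXA2 regions outside exons, picked after their values were seen for the inhibitor, siRNA and line comparisons that follow, show what DNA lay under them. Each runs 100 bases to either side of the region's centre on the plus strand of hg19 (GRCh37). Capitals mark matches, on either strand, to the forkhead motif (TATTTAC and TATTTAT, the same with TGTTT at the start, and each of these with TTTG in place of TTTA), the AP-1 motif (TGACTCA or TGAGTCA) and the TEAD motif (GGAATG). The first 5 are the highest-scoring PC3 FOXA2 regions of their genes. They are the intron of TEAD1 (chr11:12715178-12715378), an intron of RPP30 next to ANKRD1 (chr10:92647429-92647629), the intron of LATS2 (chr13:21609468-21609668), AXL near an internal start (chr19:41731593-41731793) and the intron of WWTR1 (chr3:149297853-149298053). The last are the highest-scoring NCI-H660 FOXA2 regions near YAP1 (chr11:102112961-102113161) and AMOTL2 (chr3:134138547-134138747).
TEAD1 intron, PC3 FOXA2: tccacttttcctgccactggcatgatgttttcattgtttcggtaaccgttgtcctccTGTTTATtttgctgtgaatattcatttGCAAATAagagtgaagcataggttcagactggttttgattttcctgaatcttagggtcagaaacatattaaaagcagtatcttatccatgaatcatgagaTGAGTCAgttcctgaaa
ANKRD1 window, PC3 FOXA2: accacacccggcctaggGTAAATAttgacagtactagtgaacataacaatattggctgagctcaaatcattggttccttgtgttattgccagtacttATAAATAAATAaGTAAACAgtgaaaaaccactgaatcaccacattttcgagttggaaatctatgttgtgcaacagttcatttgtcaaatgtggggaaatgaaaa
LATS2 intron, PC3 FOXA2: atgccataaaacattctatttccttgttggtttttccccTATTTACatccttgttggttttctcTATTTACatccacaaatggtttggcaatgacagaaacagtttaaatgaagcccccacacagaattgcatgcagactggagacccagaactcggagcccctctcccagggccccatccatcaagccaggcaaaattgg
AXL internal start, PC3 FOXA2: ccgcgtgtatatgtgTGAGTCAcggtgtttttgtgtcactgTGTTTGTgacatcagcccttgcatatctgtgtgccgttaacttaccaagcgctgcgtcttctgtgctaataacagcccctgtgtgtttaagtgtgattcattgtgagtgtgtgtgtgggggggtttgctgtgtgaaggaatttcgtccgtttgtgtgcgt
WWTR1 intron, PC3 FOXA2: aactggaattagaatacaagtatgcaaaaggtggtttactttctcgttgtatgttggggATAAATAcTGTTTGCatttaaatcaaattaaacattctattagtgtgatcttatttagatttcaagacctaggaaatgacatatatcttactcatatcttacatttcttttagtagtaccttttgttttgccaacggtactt
YAP1 downstream, NCI-H660 FOXA2: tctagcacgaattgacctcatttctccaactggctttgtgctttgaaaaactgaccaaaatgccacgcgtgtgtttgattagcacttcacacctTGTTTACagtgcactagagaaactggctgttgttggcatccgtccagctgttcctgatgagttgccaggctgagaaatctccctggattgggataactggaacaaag
AMOTL2 upstream, NCI-H660 FOXA2: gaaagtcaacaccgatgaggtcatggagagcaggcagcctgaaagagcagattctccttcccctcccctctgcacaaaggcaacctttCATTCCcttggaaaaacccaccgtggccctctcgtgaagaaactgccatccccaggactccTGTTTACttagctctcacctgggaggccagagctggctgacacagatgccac
The TEAD1 and AXL sequences hold forkhead and AP-1 matches together. The ANKRD1 window holds 4 forkhead matches and no AP-1 match, and the LATS2 and WWTR1 introns 2 forkhead matches each. The YAP1 sequence has 1 forkhead match, and the AMOTL2 sequence is the only 1 of the 7 with a TEAD match.

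In PC3 cells under vehicle FOXA2 lay around most of these genes, and most of its regions were in the windows of the coactivators and TEAD1. There were 32 FOXA2 regions, in the windows of 8 of 10 genes, where 54.1% of all protein-coding genes had at least 1. The windows of these genes are long (median 184.9 kb, against 127.2 kb for all genes), and per length they held 16.2 FOXA2 regions per Mb against 8.51 per Mb over all gene windows. YAP1 had 7 regions, WWTR1 7 and TEAD1 9, and per 100 kb of window these came to 3.14, 2.19 and 2.43, the highest of the 10 genes. LATS2, the kinase, had 3 regions, while ANKRD1 (a nuclear ankyrin-repeat protein and YAP target) and VGLL3 (a TEAD cofactor) had 2 each. AXL, a receptor tyrosine kinase and YAP target, and AJUBA, a LIM protein that restrains LATS kinases, had 1 each. TEAD4 and AMOTL2 (an angiomotin-family protein that binds YAP) had 0 in this vehicle list. In the longer lists of the other ChIPs TEAD4 had 1 and 1, and AMOTL2 had 2 and 3. All 32 were found again in each of the other ChIPs, where the shares over the whole vehicle list were 92.5% and 90.8%.

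**Figure D1:**
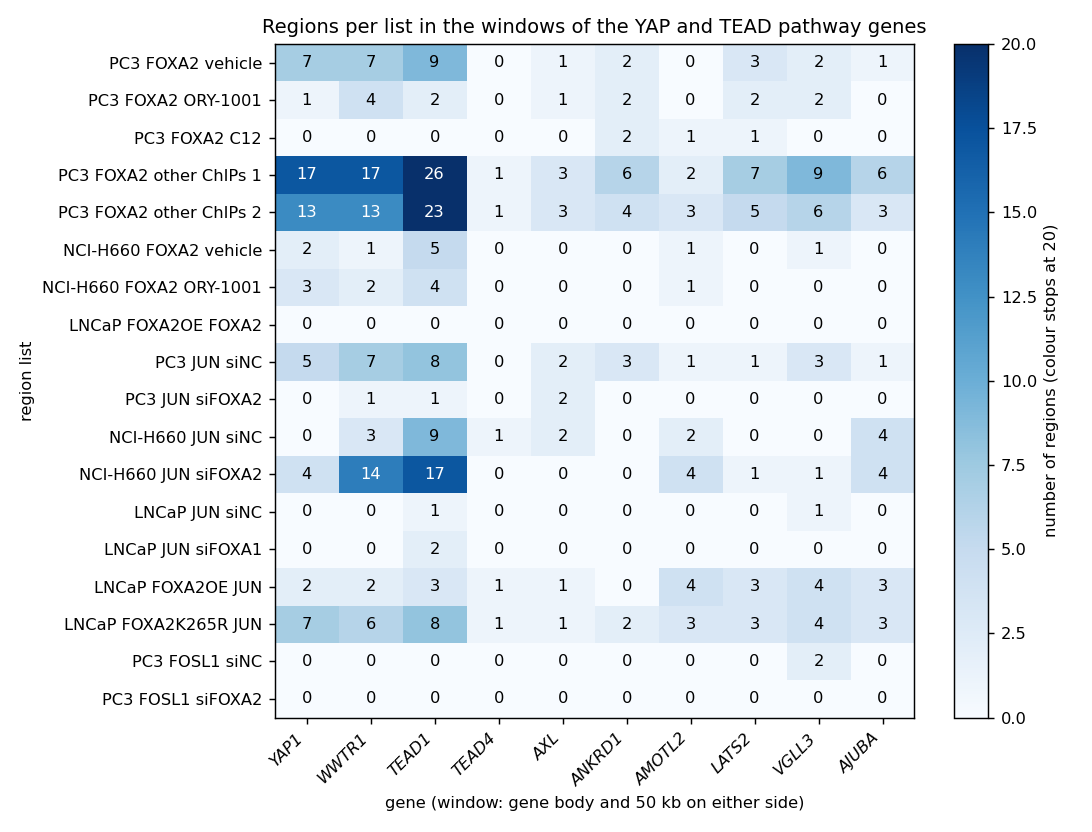
Number of regions in each list (rows) for each of the 10 genes (columns), counted over the gene body and 50 kb on either side; each cell prints its count and the colour stops at 20. YAP1, WWTR1 and TEAD1 held 7, 7 and 9 PC3 FOXA2 regions under vehicle, and FOSL1 regions appeared at VGLL3 alone.

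The strongest FOXA2 region of the set in the vehicle list was not at a coactivator but in an intron of RPP30, 33.3 kb from the ANKRD1 start (chr10:92647301-92647756), with a score of 885 and a rank of 3.80%. The LATS2 intron (chr13:21609394-21609741) followed with 434 and the TEAD1 intron, 19.3 kb from the start (chr11:12715091-12715464), with 418. The best WWTR1 region (chr3:149297753-149298153) scored 275, the best VGLL3 region (chr3:87001314-87001657) 215, and the best YAP1 region (chr11:102043230-102043532), in an intron 62.2 kb from the start, 210. AJUBA (chr14:23447674-23447977) and AXL (chr19:41731556-41731829) reached 183 and 155, both within 1 kb of an annotated start. In the other ChIPs the order at the top differed, with LATS2 highest (1813 and 1379) and ANKRD1 next (1721 and 1237). The median score of the 32 vehicle regions was 146.5, close to the 150.0 of the whole list. Of the 32, 5 were at promoters (15.6%, 6.86 to 31.8%, against 3.98% of the whole list), at YAP1, WWTR1, AXL, ANKRD1 and AJUBA. The windows were set around genes, while the whole list includes places far from any gene. A higher promoter share therefore comes with the choice of windows, and no promoter enrichment can be read from it.

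JUN regions in PC3 were also most numerous at TEAD1, WWTR1 and YAP1, which have the longest windows, whereas per 100 kb ANKRD1 had 2.75, YAP1 2.24, WWTR1 2.19 and TEAD1 2.16. The siNC list had 31 regions in the windows of 9 genes, where 62.8% of all genes had at least 1. TEAD1 had 8, WWTR1 7, YAP1 5, ANKRD1 and VGLL3 3 each, AXL 2, and AMOTL2, LATS2 and AJUBA 1 each, and TEAD4 again had 0. The strongest JUN region lay at an internal start of WWTR1, 160.4 kb into the gene (chr3:149293938-149294337), with a score of 628 and a rank of 5.21%. AXL came next, with 533 at its internal start (chr19:41731539-41732244) and 462 in an intron (chr19:41729486-41729751). The TEAD1 intron that had the best FOXA2 region also had the best TEAD1 JUN region (346, chr11:12715103-12715533), and YAP1 had its best JUN region (318, chr11:101982736-101983078) 1.7 kb from the start. At ANKRD1 the best JUN region was its promoter (293, chr10:92680933-92681256), which also held FOXA2, at AJUBA it was a promoter with a score of 210 (chr14:23446919-23447246), at VGLL3 the promoter with 90 (chr3:87039579-87039853), at AMOTL2 an intron with 87 (chr3:134082966-134083341) and at LATS2 an intron with 63 (chr13:21607809-21608350).

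FOXA2 and JUN met at 14 of the 32 FOXA2 regions (43.8%, 28.2 to 60.7%), which is the share of the whole list (44.3%). FOSL1 overlapped 0 of the 32 (0 to 10.7%), against 7.24% of the whole list, so none of the 32 held both JUN and FOSL1. In the first of the other ChIPs, also from vehicle cells, a FOXA2 region at VGLL3 overlapped both. FOSL1 had 2 regions in all, both at VGLL3, so that 1 of 10 genes had a FOSL1 region where 17.4% of all genes did. The stronger (score 80) lay in an intron and overlapped a JUN region, and the other (score 51, chr3:86978311-86978531) overlapped no JUN region. FOXA2 under vehicle lay in accessible chromatin at 28 of 32 regions (89.3% over the whole list) and under H3K27ac at 22 of 32 (68.8%, 51.4 to 82.0%, against 58.7%). All 10 promoters were in the PC3 ATAC and H3K27ac lists, those of TEAD4 and AMOTL2 included. Accessible promoters were therefore shared by genes with and without FOXA2 regions in the vehicle list. The other ChIPs did hold FOXA2 regions in the TEAD4 and AMOTL2 windows.

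**Figure D2:**
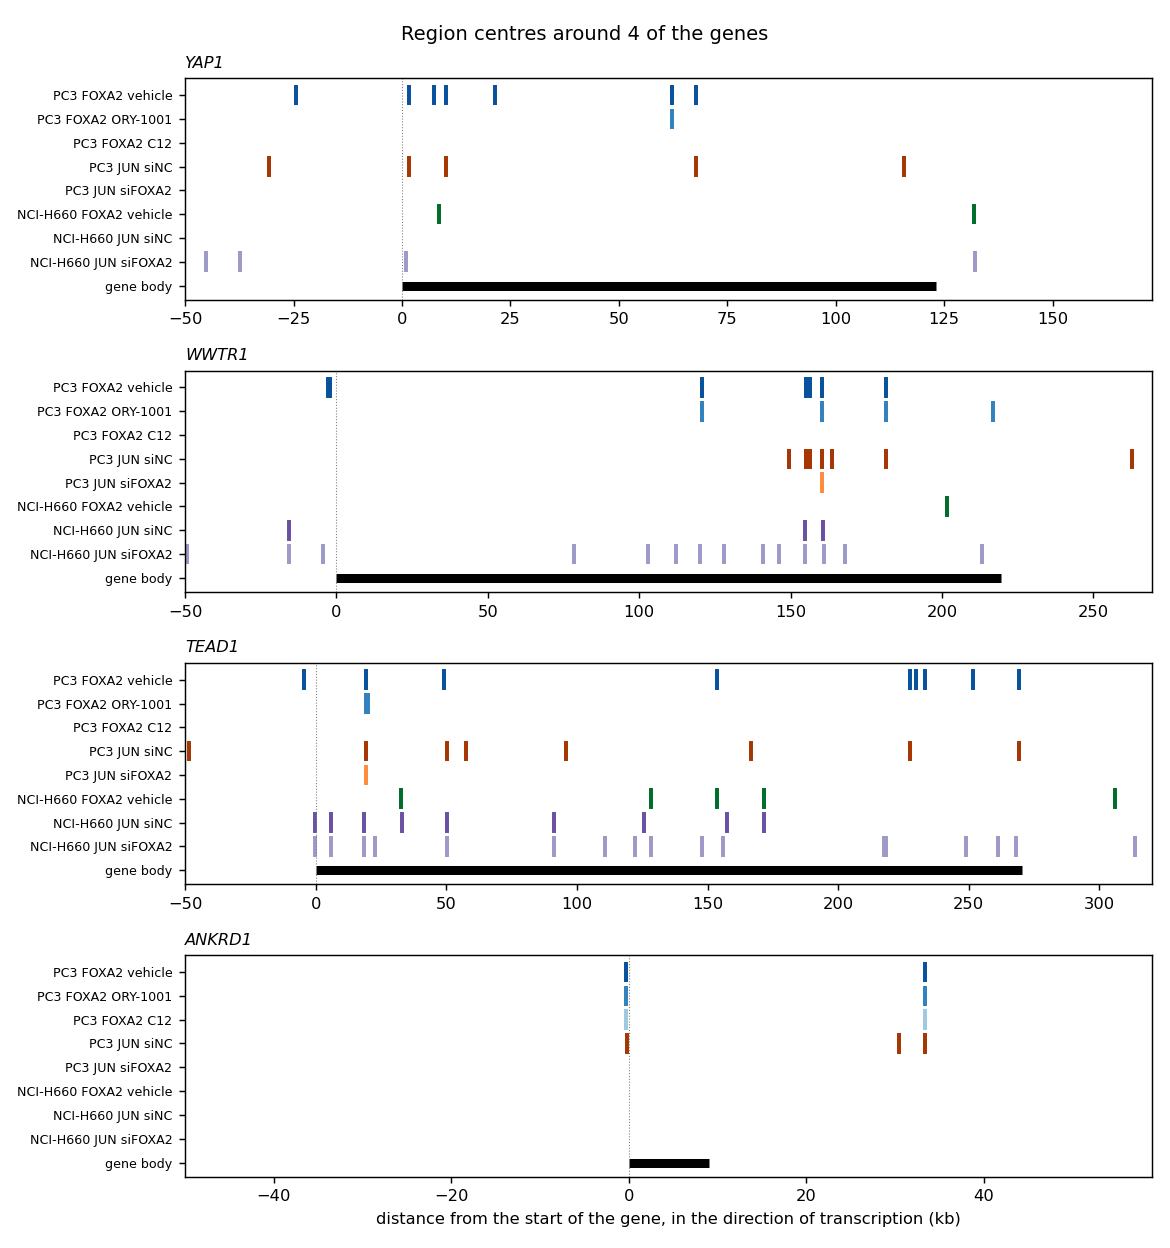
Region centres (vertical bars) of 8 lists around YAP1, WWTR1, TEAD1 and ANKRD1, by distance from the start of the gene in kb along the direction of transcription; the black bar is the gene body. The ANKRD1 promoter and the place 33.3 kb from its start carried FOXA2 in all 3 PC3 treatments, and WWTR1, TEAD1 and YAP1 carried none under C12.

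NCI-H660 cells had fewer FOXA2 regions at these genes than PC3 cells, as they had over the whole lists. FOXA2 under vehicle had 10 regions, at 5 of 10 genes (37.6% of all genes had at least 1): TEAD1 had 5, YAP1 2, and WWTR1, AMOTL2 and VGLL3 1 each. The log2 ratio of NCI-H660 to PC3 FOXA2 region numbers was -1.68 (-2.70 to -0.65), beside -1.02 for the whole lists. With both lists cut to equal length by score it was -0.68 (-1.82 to 0.46), beside 0.00. A single place was shared with the PC3 vehicle list, an exon of TEAD1 (chr11:12849486-12849725 in PC3, score 41, and chr11:12849578-12849805 in NCI-H660, score 114). That is 1 of 32 PC3 regions (3.12%, against 11.1% of the whole list) and 1 of 10 NCI-H660 regions (10.0%, against 22.5%). The longer lists of the other PC3 ChIPs held 6 and 5 of the 10 NCI-H660 regions (31.5% and 28.4% of the whole NCI-H660 list), and the 6 were all 5 at TEAD1 and 1 downstream of YAP1. The PC3 FOXA2 regions lay in NCI-H660 accessible chromatin at 7 of 32 (21.9%, against 22.6%), and the NCI-H660 ones in PC3 accessible chromatin at 5 of 10 (23.7 to 76.3%, against 35.2%).

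The NCI-H660 region downstream of YAP1 was among the strongest of its list (score 1162, rank 1.14%, chr11:102112907-102113214). It lay 131.9 kb from the start, in ATAC of both lines, and in both other PC3 ChIPs though not in the PC3 vehicle list. An intron of WWTR1 (chr3:149252673-149252987) scored 350, a place 44.3 kb upstream of AMOTL2 (chr3:134138488-134138805) 175, a place beyond TEAD1 (chr11:13001914-13002144) 169, and VGLL3 (chr3:86926000-86926238) 166. All 10 were in NCI-H660 ATAC (90.9% of the whole list) and 8 under H3K4me2 (62.7%). At a promoter there were 0 of 10 (0 to 27.8%, against 5.11% of the whole list). All 10 promoters were accessible in NCI-H660, and 9 of 10, all but that of ANKRD1, carried H3K4me2.

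In NCI-H660 JUN lay at the promoters of 5 of these genes, WWTR1, TEAD1, TEAD4, AMOTL2 and AJUBA. With siNC it had 21 regions at 6 of 10 genes (66.3% of all genes had at least 1), and 10 of the 21 were at a promoter, of these genes or their neighbours (47.6%, 28.3 to 67.6%, against 22.4% of the whole list), where PC3 JUN had 7 of 31 (22.6%, against 8.44%). Both promoter shares come from windows set around genes, unlike those of the whole lists, so no promoter enrichment can be read from them. TEAD1 had 9, AJUBA 4, WWTR1 3, AXL and AMOTL2 2 each and TEAD4 1, while YAP1, with 2 FOXA2 regions in this line, had 0. The TEAD1 promoter was the strongest (score 1208, rank 1.37%, chr11:12695650-12696055), then the AMOTL2 promoter (901, chr3:134092398-134093037), a WWTR1 intron (526, chr3:149299660-149300085) and the AJUBA promoter (440, chr14:23446839-23447232). The best TEAD4 region scored 83 (chr12:3069847-3070194). The 2 JUN regions in the AXL window, the better with a score of 36 (chr19:41699212-41699492), were at promoters of its neighbours CYP2S1 and CCDC97, not at AXL. The ratio to PC3 JUN was -0.56 on the log2 scale, with an interval that spans 0 (-1.36 to 0.24), beside -0.38 for the whole lists. The siNC JUN lists of these lines came from different processing folders, as did their ATAC lists. Folder and line cannot be told apart in comparisons of either. The lines shared 4 JUN places, 2 in WWTR1, 1 in TEAD1 and the AJUBA promoter, which are 12.9% of the PC3 regions (12.8% over the whole list) and 19.0% of the NCI-H660 regions (16.5%). FOXA2 and JUN met at 3 of the 10 NCI-H660 FOXA2 regions (10.8 to 60.3%, against 36.4% of the whole list), 2 in TEAD1 and the place upstream of AMOTL2.

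ORY-1001 and C12 were each compared with the same PC3 vehicle list, at different doses, so their values are given side by side and not set against each other. Under ORY-1001 10 of the 32 FOXA2 regions were kept (31.2%, 18.0 to 48.6%), against 36.8% of the whole list. The share expected from the score deciles of the list was 30.5%. The 10 lay at WWTR1 (3 of 7), ANKRD1 (2 of 2), LATS2 (2 of 3), YAP1 (1 of 7), TEAD1 (1 of 9) and AXL (1 of 1), and 7 of 10 genes still had a FOXA2 region, where 39.0% of all genes did. Kept regions had a median vehicle score of 187.5 and lost ones of 91.5. The YAP1 region kept was its best in the vehicle list, 210 there and 84 under ORY-1001. Around the TEAD1 intron region (418 under vehicle) the ORY-1001 list had 2 regions. Of these 1 overlapped it, and 1 was new, 19.97 to 20.25 kb from the start, at a place that both other ChIPs held. The higher-scoring of the 2 had 129 (rank 38.4%). In the other ChIPs that YAP1 region scored 250 and 361, below a YAP1 intron region 7.4 kb from the start (998 and 715). The region at 7.4 kb was not kept under ORY-1001. Of the 14 regions with JUN 6 were kept and of the 18 without it 4, where the whole list gave 53.7% and 23.4%.

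Of the 14 regions under ORY-1001 4 had no vehicle counterpart (28.6%, against 35.6% of the whole list). At VGLL3 both vehicle regions were lost and 2 others appeared (chosen for naming after their values were seen). The stronger of these, with a score of 95, overlapped the FOSL1 and JUN regions of siNC cells and was in the first of the other ChIPs. The place is thus 1 where FOXA2, JUN and FOSL1 regions overlapped, although FOXA2 was not called there in the vehicle list of the contrast.

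Under C12 3 of the 32 FOXA2 regions were kept (9.38%, 3.24 to 24.2%), against 29.6% of the whole list and 21.7% expected from the score deciles. They were both ANKRD1 regions and the LATS2 intron. None of the 7 YAP1, 7 WWTR1 or 9 TEAD1 regions was kept, and 3 of 10 genes had a region under C12, where 28.7% of all genes did. The third gene was AMOTL2, with a promoter region of score 16 that the vehicle list lacked and the second of the other ChIPs held. The log2 ratio of region numbers was -3.00 (-4.50 to -1.50) for C12, beside -1.53 for the whole lists, and -1.19 (-2.10 to -0.29) for ORY-1001, beside -0.81. The ANKRD1 region in RPP30 scored 885 under vehicle, 607 under ORY-1001 and 386 under C12, the ANKRD1 promoter 169, 109 and 97, and the LATS2 intron 434, 234 and 167. By rank the region in RPP30 stood at 3.80%, 4.81% and 9.96%, and the LATS2 intron at 14.2%, 20.5% and 34.7%. When equal numbers of the highest-scoring regions were compared, the kept share under C12 was 2 of 5, beside 61.2% of the whole list so cut. With a window of 100 kb it was 6 of 37 (16.2%, 7.65 to 31.1%), an interval that includes the whole-list share.

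**Figure D3:**
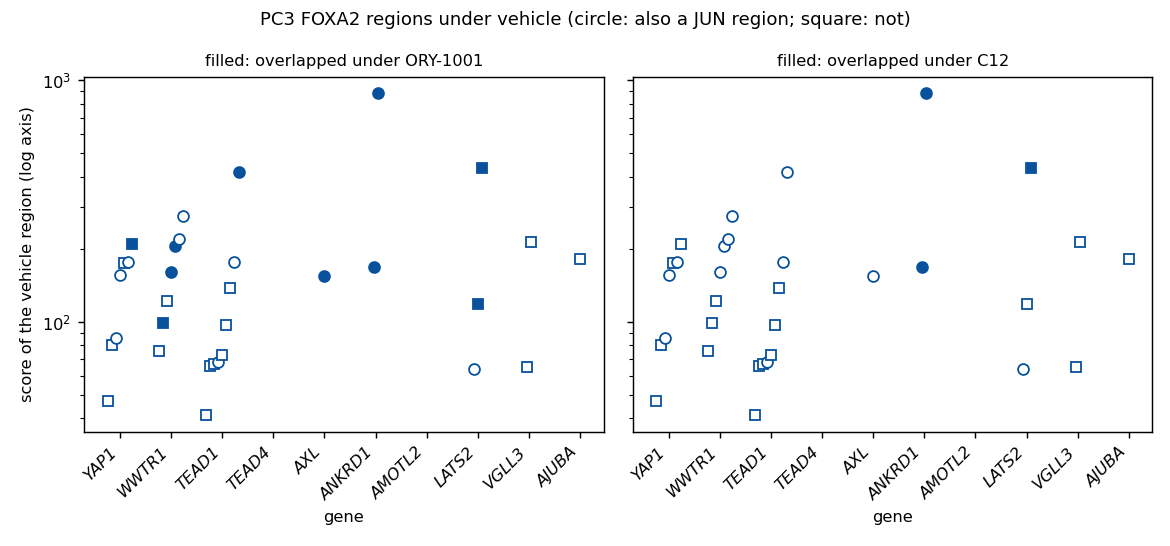
Score of each of the 32 PC3 FOXA2 regions under vehicle (log axis) by gene, filled where the region was overlapped under ORY-1001 (left) or C12 (right), as a circle where a JUN region of siNC cells overlapped it and as a square otherwise. Of the 32 regions 10 are filled on the left and 3 on the right.

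In NCI-H660 cells the FOXA2 regions were kept under ORY-1001 at 8 of 10 (80.0%, 49.0 to 94.3%), against 68.4% of the whole list. Both lists had 10 regions in the windows. The YAP1 downstream region scored 1162 under vehicle (rank 1.14%) and 1010 under ORY-1001 (2.17%), and the WWTR1 intron 350 (14.3%) and 253 (23.7%). The regions lost were the TEAD1 exon that PC3 shares and the VGLL3 region.

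FOXA2 knockdown was followed in JUN lists. FOXA2 protein or RNA is not measured in these lists, so the knockdown itself cannot be checked here. In PC3 the 31 JUN regions of siNC cells fell to 4, all of them kept from siNC (12.9%, 5.13 to 28.9%, against 13.4% of the whole list), and 3 of 10 genes had a region, where 16.7% of all genes did. YAP1 went from 5 to 0, ANKRD1 and VGLL3 from 3 to 0, WWTR1 from 7 to 1 and TEAD1 from 8 to 1. AXL went from 2 to 2. The 4 places were the WWTR1 internal start (score 628 with siNC and 151 with siFOXA2), the TEAD1 intron (346 and 46), the AXL internal start (533 and 77) and the AXL intron (462 and 126). By rank the WWTR1 place stood at 5.21% and 28.2%, and the TEAD1 place at 16.2% and 73.4%. The AXL intron had no FOXA2 region, and the other 3 did. Among the JUN regions with FOXA2 3 of 14 were kept (18.3% over the whole list) and among those without it 1 of 17 (9.42%). The FOSL1 regions at VGLL3 were kept at 0 of 2 (6.90% of the whole list), and with siFOXA2 no FOSL1 region lay at any of the genes.

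JUN regions in NCI-H660 moved the other way in number, from 21 to 45, with a log2 ratio of 1.10 (0.35 to 1.85), beside 1.69 for the whole lists, whereas PC3 gave -2.95 (-4.46 to -1.45), beside -2.55. Of the 21 regions 13 were kept (61.9%, 40.9 to 79.2%, against 48.0%), and 32 of the 45 were new (71.1%, against 85.2%). WWTR1 went from 3 to 14 and TEAD1 from 9 to 17, YAP1 gained 4, and AXL went from 2 to 0. With siFOXA2 7 of 10 genes had a JUN region, where 83.6% of all genes did. Of the 45, 22 lay in NCI-H660 ATAC (48.9%, against 31.5% of the whole list), and with siNC 21 of 21 did, beside 86.0% of the whole list. Among regions that scored 50 or more the numbers were 17 and 20, and the log2 ratio was 0.23 (-0.70 to 1.17), beside 0.61 for the whole lists. The TEAD1 promoter scored 1208 with siNC (rank 1.37%) and 734 with siFOXA2 (0.521%), and the AMOTL2 promoter 901 (2.48%) and 641 (0.644%). The AJUBA promoter had 440 (8.55%) and 519 (0.895%). By rank in percent each stood higher in the siFOXA2 list, which is the longer list, so neither score nor rank is read as a change.

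**Figure D4:**
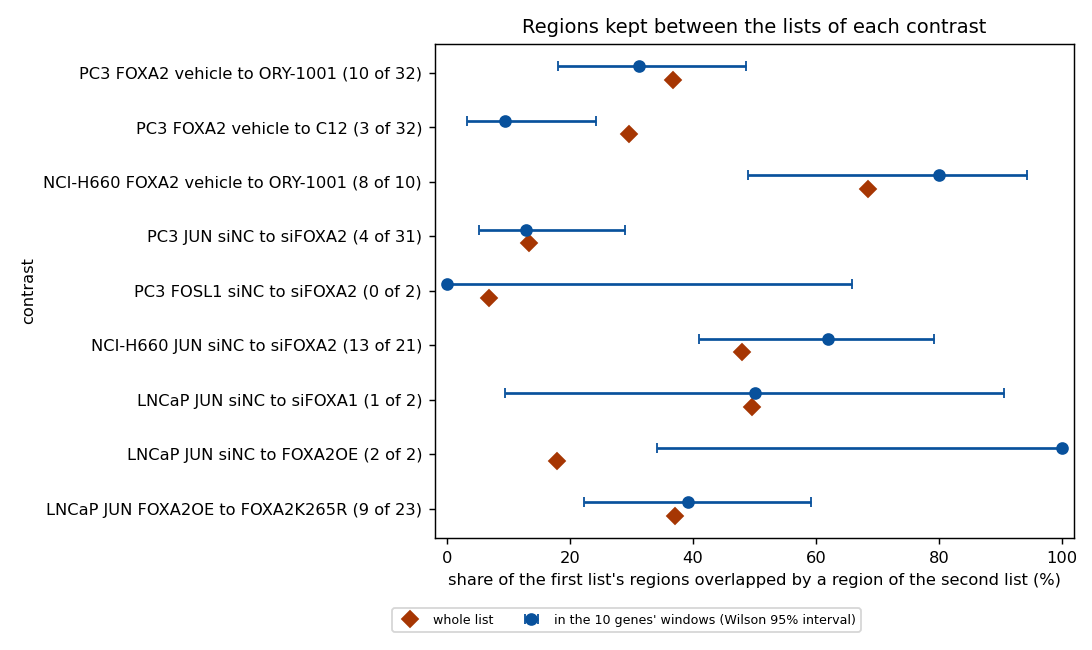
Share of the first list's regions that the second list overlapped, in percent, for 9 contrasts; circles are the 10 genes' windows with Wilson 95% intervals, diamonds the whole list, and the counts stand beside each name. Under C12 3 of 32 FOXA2 regions were kept, and the diamond (29.6%) lies above the interval, which a window of 100 kb does not keep (6 of 37, 7.65 to 31.1%).

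LNCaP cells had JUN at 2 promoters with siNC, those of TEAD1 (chr11:12695746-12695993) and VGLL3 (chr3:87039665-87040072), so 2 of 10 genes had a region where 13.4% of all genes did. With siFOXA1 the TEAD1 promoter was kept and that of VGLL3 was not (1 of 2, against 49.6% of the whole list). In FOXA2OE cells both were kept (2 of 2, against 17.9%) among 23 JUN regions at 9 of 10 genes, where 79.5% of all genes had at least 1. The TEAD1 promoter was near the top of that list (score 758, rank 0.396%) and of the FOXA2K265R list (1299, rank 0.301%). FOXA2K265R had 38 regions at 10 of 10 genes (85.1% of all genes) and kept 9 of the 23 FOXA2OE regions (39.1%, 22.2 to 59.2%, against 37.0%). The lowest JUN score was 30 for FOXA2OE and 23 for FOXA2K265R, so the counts of 23 and 38 start from unlike scores. At a score of at least 50 the counts were 21 and 24, and 8 of the 21 were kept (38.1%, against 30.1%). JUN regions of siNC cells carry no score, so their lowest score is unknown. The FOXA2OE FOXA2 list, of 2500 regions, had none in these windows, and 6.04% of all genes had at least 1. JUN regions of these cells held the AP-1 motif at 2 of 23 (FOXA2OE) and 2 of 38 (FOXA2K265R), beside 2.39% and 4.09% of those whole lists. A PC3 JUN region was overlapped by 2 of 23 and 3 of 38, beside 4.01% and 4.51%. The siNC, FOXA2OE and FOXA2K265R lists came from different processing folders, so folder and condition cannot be told apart. Cells with siNC were transfected and FOXA2OE cells were labelled vehicle, so that difference cannot be told apart from FOXA2 expression either.

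Motif matches were compared with those of the whole lists. Within 100 bp of the centre 23 of 32 PC3 FOXA2 regions held a forkhead match (71.9%, against 77.3%), 7 an AP-1 match (21.9%, against 26.4%) and 4 a TEAD match (12.5%, 4.97 to 28.1%, against 14%). PC3 JUN regions held the TEAD motif at 8 of 31 (25.8%, 13.7 to 43.2%, against 17%) and AP-1 at 13 of 31 (41.9%, against 49.5%). NCI-H660 JUN regions held TEAD at 5 of 21 (23.8%, 10.6 to 45.1%, against 11.6%), AP-1 at 4 (19.0%, against 13.8%) and forkhead at 2 (9.52%, 2.65 to 28.9%, against 28.4%). Among NCI-H660 FOXA2 regions 8 of 10 held a forkhead match (75.9% of the whole list) and 0 of 10 an AP-1 match (6.30%). The TEAD motif stood in 13.3% of all PC3 accessible regions, the AP-1 motif in 16.9% and the forkhead motif in 29.8%. All of these JUN shares, for TEAD, AP-1 and forkhead, had intervals that include the share of the whole list.

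Other genes of the pathway, in lists chosen with results of these data known, were also near FOXA2. Beside the 54.1% of all genes with a PC3 FOXA2 region under vehicle, 14 of 17 YAP and TAZ target genes had at least 1. In number, not per length, RBMS3 (21, in a window of 1535.6 kb), ASAP1 (13, in 491.6 kb) and CRIM1 and DOCK5 (7 each) had most, and FOXF2 had a vehicle region in neither line. CCN1 and CCN2, matricellular proteins and standard readouts of YAP, had 5 in 103.8 kb and 2 in 103.2 kb. Of the targets' 83 FOXA2 regions 49 overlapped JUN, 42 were also in the ORY-1001 list and 33 (39.8%) in the C12 list, where the shares over the windows of all genes were 43.6%, 37.4% and 29.5%. Of 15 Hippo kinases and upstream regulators 11 had a PC3 FOXA2 region, FRMD6 (11), LIMD1 (7) and AMOTL1 (6) most, while the kinase gene STK3 had 0 in PC3 and 6 in NCI-H660 under vehicle. MOB1A and LATS1 had a vehicle FOXA2 region in neither line. Of their 42 regions the ORY-1001 list held 20 and the C12 list 17 (40.5%). Of 5 other TEAD factors and cofactors 2 had a PC3 FOXA2 region, TEAD3 with 2 and VGLL4 with 1, and TEAD2 and VGLL1 had none under vehicle in either line.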

How the data were processed

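ChIP-seq and ATAC-seq reads were aligned by the authors with BWA (0.7.17-r1188) to hg19 and regions were called with MACS2 (2.1.4), per the submitters' processing notes, which also name SAMtools (1.9) and FastQC (0.11.9). The call settings, the control library and any pooling are not given in the sources used here. Of 22 deposited lists 20 hold a score, a whole number read here as 10 times −log10 of the q-value by inference from its minimum (13 in most lists). The LNCaP siNC JUN and FOXA2OE FOXA2 lists hold no score, only positions. ATAC labels repeat the ChIP text.

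The genes, lists and motifs were chosen with earlier results of these data known. Gene bodies came from GENCODE 44 on this build. A promoter is 1 kb on either side of a protein-coding transcript start. Overlap was at least 1 bp. The regions named are, per gene, the highest-scoring in the PC3 and NCI-H660 FOXA2 and JUN and the PC3 FOSL1 lists, and others that a count or contrast singled out after values were seen. Sequences were to be PC3 FOXA2 regions with JUN and FOSL1, of which the vehicle list had none here, then NCI-H660 FOXA2 regions. So 7 were picked from the named regions outside exons after their values were seen. The luminal marker promoters and a further sequence are not reported here. The score-decile share weights the whole list's kept share in 10 deciles of score. Log2 ratios carry 95% counting intervals. Python 3.11.15, pandas 2.3.3, scipy 1.17.1 and pysam 0.24.0 were used, and the overlap and motif steps were tested on simulated data. No test between conditions was possible. The FOXA2K265R sample is named so by its title, although its cell line label reads FOXA2OE.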

Additional observations from a re-analysis of the deposited data

Results flagged for a closer look

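JUN region numbers at these genes moved in opposite directions with siFOXA2 in the 2 lines. The log2 ratio of siFOXA2 to siNC was -2.95 in PC3, beside -2.55 for the whole lists, and 1.10 in NCI-H660, beside 1.69. The whole lists thus moved in opposite directions too. Each ratio comes from 1 list per arm, and the difference was not tested. With scores of at least 50 the ratios were -3.32 in PC3, beside -2.87 for the whole lists, and 0.23 (-0.70 to 1.17) in NCI-H660, beside 0.61. With lists cut to equal length by score they were 0.00 and -0.14. WWTR1 went from 7 to 1 region in PC3 and from 3 to 14 in NCI-H660, and TEAD1 from 8 to 1 and from 9 to 17.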

How the results depend on the processing

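Of 123 alternative values for 27 results, 111 stayed inside the counting interval of the reported value. The alternatives were windows of 20 kb or 100 kb, a score of at least 50, a stricter overlap of 50% of both regions, equal numbers of the highest-scoring regions, and leaving out places found in at least 17 lists, of which none lay in these windows. With both lists cut to the same length by score, the log2 ratio became -0.28 for ORY-1001 and -0.32 for C12 in PC3 FOXA2, 0.00 for JUN with siFOXA2 in PC3, and -0.41 for ATAC between NCI-H660 and PC3. The kept share became 40.0% (2 of 5) for C12, beside 61.2% of the whole list so cut. For JUN with siFOXA2 in PC3 it became 100% (4 of 4), beside 47.4%. This setting cuts the longer list to the length of the shorter, so the whole lists then differ by 0.00. The JUN ratio with siFOXA2 in NCI-H660 changed sign under it, to -0.14, and was 0.23 with a score of at least 50, beside 0.61 for the whole lists. Against the other PC3 ChIPs, which are longer lists, the NCI-H660 to PC3 FOXA2 ratio was -3.23 and -2.89. With 250 bp on either side of the centre 31.2% of PC3 FOXA2 regions held a TEAD match (29.0% of the whole list) and 90.6% a forkhead match (89.7%). Where a list holds no score the score settings gave no value, and no log2 ratio was made for FOSL1, whose siFOXA2 list has no region here. No paired analysis was possible because each group is 1 list and no result comes from a test. Unknown depth and the small numbers of regions limit every share.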
